A study of Equus caballus with 21 samples.

Results

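The stroma of the horse endometrium was compared with the glandular epithelium of the same uterine biopsies, gene by gene. The members are the 8 RNA sequencing libraries, of 21 in all, that pair these compartments within a biopsy: 4 stromal and 4 glandular libraries, chosen by the state and mare letter in their labels. Warmblood mares received 1500 IU of human chorionic gonadotropin to induce ovulation, and biopsies were taken on day 12 either of a control estrous cycle (called cyclic here) or of a pregnancy that followed insemination with cooled semen. Prostaglandin F2 alpha was also given on day 12 to end the experiment. The pairs were cyclic mare B, cyclic mare M, pregnant mare M and pregnant mare U. They are 4 biopsies from 3 animals, so p-values over biopsies are too small to the extent that the biopsies of mare M are alike.

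Laser capture microdissection cut each compartment out of stained frozen sections of 10 µm, and libraries were made from 1 ng of total RNA with a kit for single cells. A number of libraries, not named in the labels, had an extra round of amplification. A captured stromal area holds fibroblasts together with blood and lymph vessels, smooth muscle around vessels, and immune cells. In such bulk samples, fewer cells of a type and less RNA per cell cannot be told apart.

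Endometrial glands are epithelial tubes that secrete the uterine milk on which the horse conceptus depends while it is still unattached and mobile in the uterine cavity. The stroma between the glands is a connective tissue that lays down collagen and proteoglycans, carries the vessels and sends growth factors and their antagonists to the epithelium. In many mammals progesterone acts on the epithelium partly by way of the stroma, and epithelial hedgehog ligand signals back to stromal receptors.

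Total counts ran from 138441 to 1175127 in stroma and from 222623 to 1079351 in gland. Without the ribosomal RNA genes they ran from 128256 to 386671 and from 221842 to 865244. The 18S ribosomal RNA gene RN18S took 0.819% to 66.2% of a stromal and 0.293% to 48.8% of a glandular library, with no order between compartments (log2 fold change 0.64 ± 1.37, adjusted p = 0.942). Stromal libraries detected 4072 to 8116 genes and glandular libraries 5093 to 11006. The pregnant stromal library of mare M stood apart from the other stromal libraries, with the largest total and the largest RN18S share.

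The captures were checked against marker lists. Summed over 15 stromal fibroblast markers, the level was 10690, 22280, 7642 and 12280 CPM (the count as parts of a library total set to 1e6, here without ribosomal RNA genes and with no further scaling) in the stroma of cyclic B, cyclic M, pregnant M and pregnant U. In the glands of those biopsies, in the same order, it was 814, 1068, 792 and 1436 CPM. The ranges did not overlap. Without DPT, its most counted gene, that list still did not overlap between the compartments. Summed over 24 epithelial markers, stroma held 164 to 1380 CPM and gland 3051 to 10310 CPM, but this separation rested on EPCAM. Without EPCAM, left out after its values were seen, the sums were 85.8 to 984 CPM in stroma and 491 to 2241 CPM in gland. They overlapped, because the cyclic M gland (491 CPM) lay below the cyclic B stroma (984 CPM), though above the other stromal libraries. The cyclic M gland had few counts of the other epithelial markers, and the cyclic B stroma had 90 of KRT18 and 34 of GRHL2. Of 3 epithelial markers tested, EPCAM passed as lower in stroma, GRHL2 was -2.05 and PROM1 1.08 (adjusted p = 0.808 and 0.9). The 25 gland markers summed to 3340 to 10100 CPM in stroma and 21850 to 62060 CPM in gland, and without P19 to 2265 to 3101 and 4957 to 14830 CPM. Smooth muscle and pericyte markers (17 genes) summed to 2948 to 6456 CPM in stroma against 175 to 1019 CPM in gland, and endothelial markers (17 genes) to 657 to 2815 CPM against 9.23 to 237 CPM. Vessel and muscle transcripts were thus present in stroma beside those of fibroblasts, and their part in the gene results was not tested. Macrophage and dendritic markers (16 genes) ran from 155 to 1878 CPM in stroma and from 18.03 to 79.96 CPM in gland. T and NK cell markers (19 genes) ran from 144 to 1746 and from 4.51 to 261 CPM, so they overlapped. Without PTPRC they were at 372, 0, 235 and 24.9 CPM in stroma and 90.2, 4.51, 7.72 and 215 CPM in gland, in the order above. Cyclic M and pregnant U then held more in gland than in stroma. In the cyclic M gland this was 1 count, of CD3G, and in the pregnant U gland 70 counts of CCL5 alone. No order of these cells between the compartments can be read from that. The highest immune sums of the stroma both came from cyclic B. All 4 red blood cell markers in the table were at 0 in the 8 libraries.

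**Figure D1:**
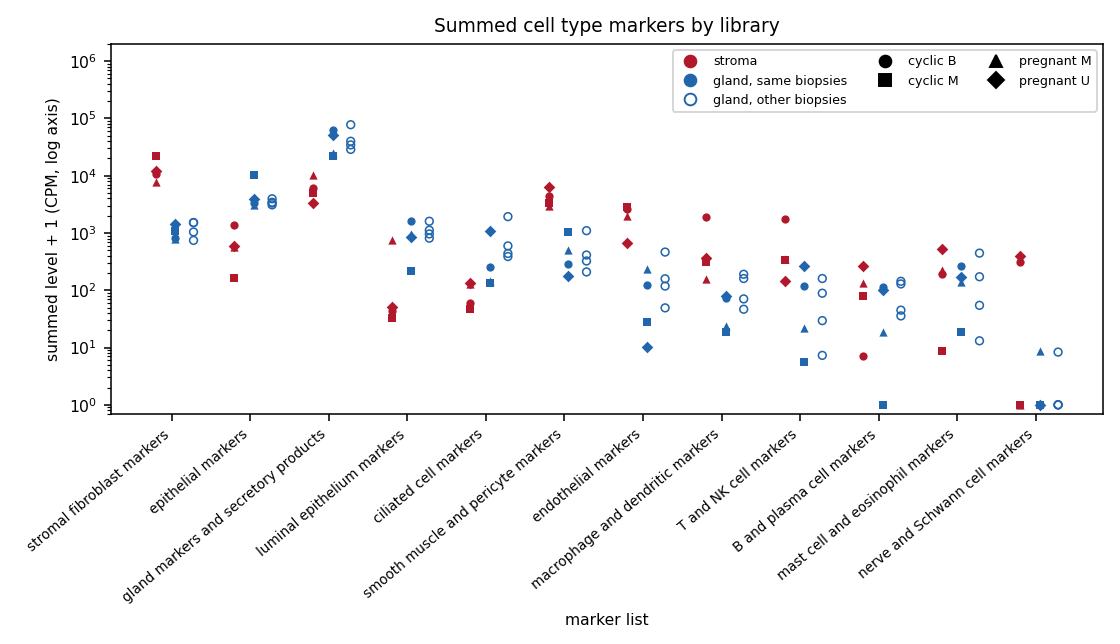
Summed level of each marker list per library on a log axis (CPM without ribosomal RNA genes, plus 1). Red symbols are the 4 stromal libraries, filled blue symbols the 4 glandular libraries of the same biopsies and open blue circles the 4 glandular libraries of other biopsies, and the symbol shape gives the biopsy. Stromal fibroblast sums run from 7642 to 22280 CPM in stroma and stay at or below 1520 CPM in every glandular library.

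Some defining genes could not be tested. FOXA2, a transcription factor of uterine gland development, had no count in any of the 21 libraries. SOX9 had none in these 8, and HAND2, a progesterone-induced factor of endometrial stroma, had 2 counts in stroma and 3 in gland. THY1, a fibroblast surface protein, had 98 counts in stroma, 86 of them in pregnant M, against 1 in gland. The gland-associated transcription factor PAX8 had 5 counts in stroma and 97 in gland. PGR, the progesterone receptor, had 103 counts in stroma, 101 of them in pregnant M, and 164 in gland, 162 of them in cyclic B and pregnant M, so its level could not be compared.

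Of 2667 genes tested, 36 were higher in stroma (1.35%) and 20 lower (0.75%) (2.1% in either direction; quasi-likelihood test of edgeR, p adjusted by Benjamini-Hochberg), and 316 had an unadjusted p under 0.05. All 56 moved the same way in all 4 biopsies, which 23% of all genes tested did. The groups of 4 libraries did not overlap for 34 of the 36 and 19 of the 20, against 3.86% of all genes not overlapping upward and 6.86% downward. Since the test and these counts use the same values, the counts describe the calls and do not support them. The median log2 fold change was 5.34 among the higher and -5.02 among the lower genes, and no called gene differed by less than 3.37 log2 units in size. Over all genes tested the median was -0.66, so the bulk of the genes lay slightly toward the gland under TMM scaling.

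With counts summed per mare, 38 of 4830 genes were higher (0.787%) and 25 lower (0.518%), and 45 of the 56 kept their call. Those that lost it were CRTAP, ADAM33, LYVE1, FBLN1, GSN, COL12A1 and DST among the higher and DPP4, DNAJB9, MRPS6 and RBM47 among the lower genes. Without 1 biopsy the calls became 2 higher and 1 lower (without cyclic B), 38 and 25 (without cyclic M), 3 and 6 (without pregnant M) or 3 and 2 (without pregnant U), and no called gene changed sign where these fits gave it a value. Only SPP1 kept its call in all 4 of them.

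**Figure D2:**
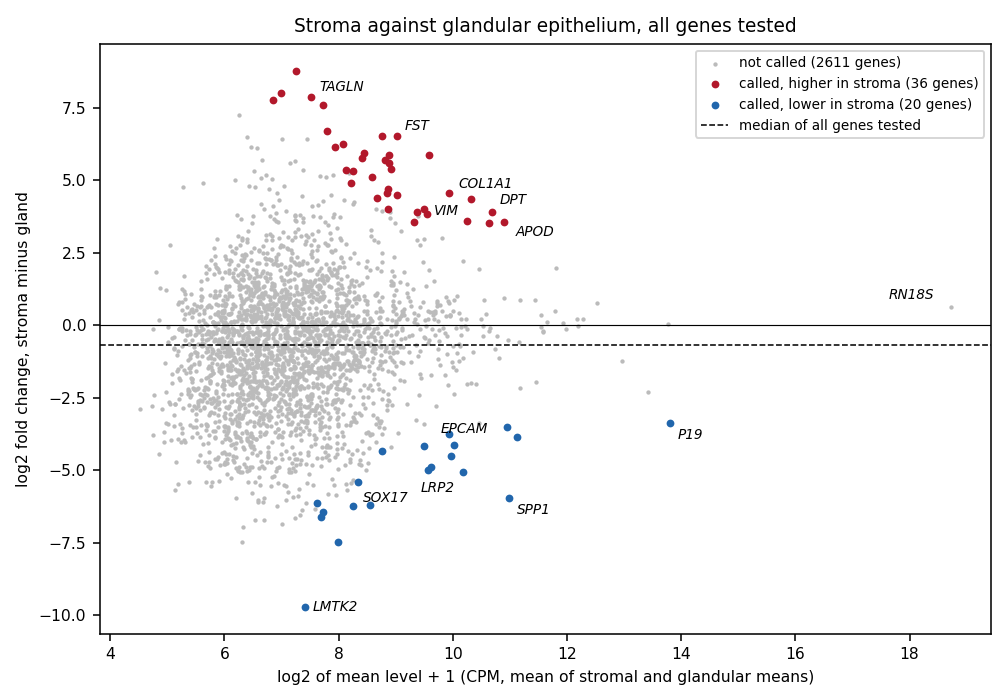
Each point is 1 of 2667 genes tested, with the log2 of its mean level plus 1 (CPM) on the horizontal and its fitted log2 fold change, stroma minus gland, on the vertical axis. The 36 called genes higher in stroma are red, the 20 called lower are blue, and the dashed line is the median of all genes at -0.66. Red points start at 3.55 and blue points at -3.37.

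**Figure D3:**
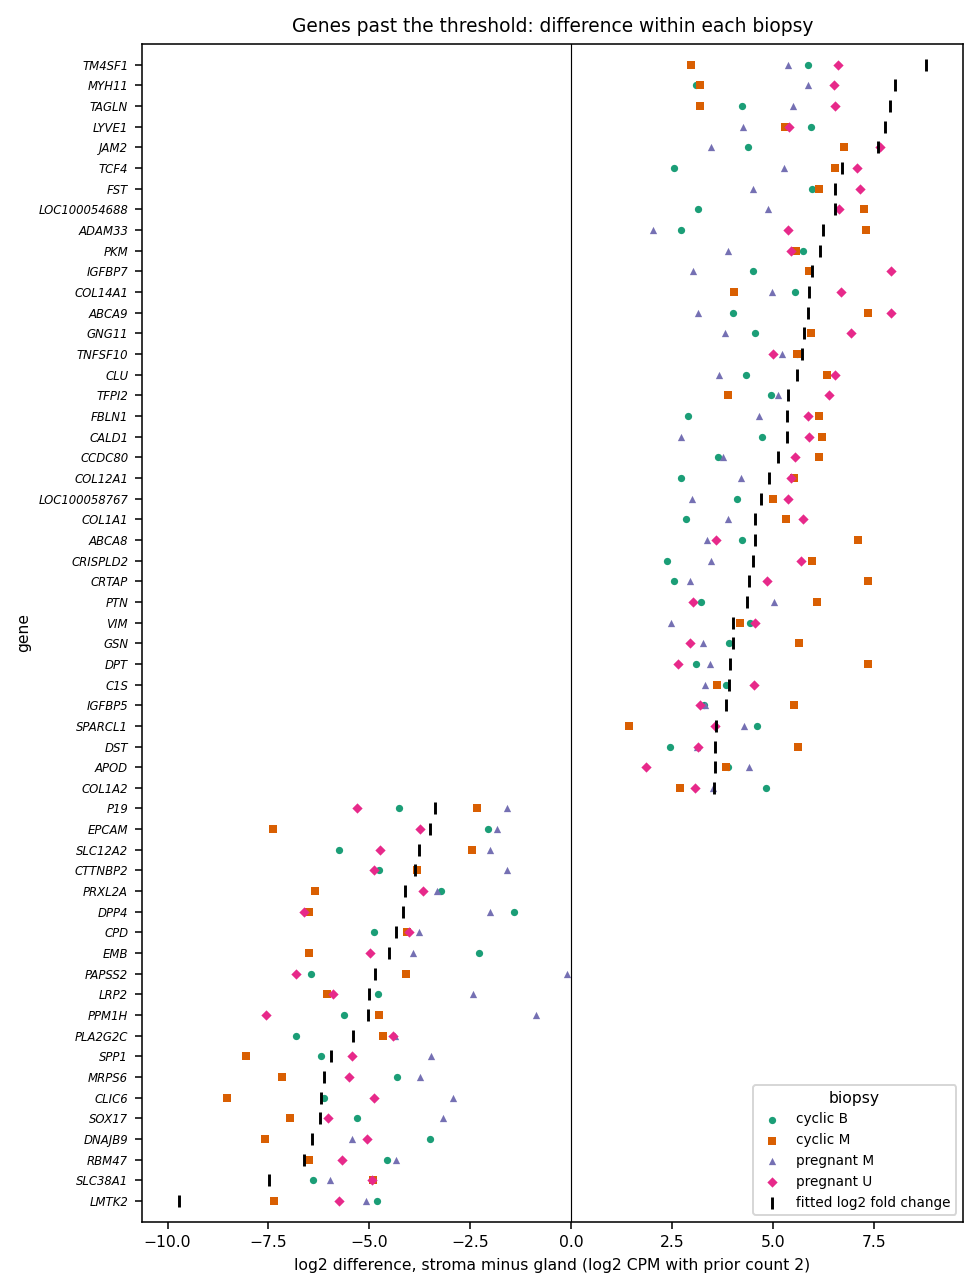
Difference in log2 CPM between stroma and gland (prior count 2) within each of the 4 biopsies for the 56 called genes, with the fitted log2 fold change as a black bar. Every coloured point of a gene lies on 1 side of 0, and among the genes lower in stroma the pregnant M triangles often lie nearest to 0, as for PAPSS2 and PPM1H. Fitted values lie farther out than the points where 1 compartment had few or no counts, because the prior count pulls the points toward 0.

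The first group of stromal genes builds the collagen matrix. COL1A1, the alpha 1 chain of type I collagen, stood at 1328, 3671, 1065 and 1411 CPM (TMM-scaled, as for all gene levels below) in the stroma of cyclic B, cyclic M, pregnant M and pregnant U. In the glands of those biopsies it stood at 180, 87.3, 67.8 and 21.5 CPM. Every stromal value lay above every glandular one (log2 fold change 4.55 ± 1.05, adjusted p = 0.00492). COL1A2, the partner chain, was at 1153 to 5437 CPM in stroma and 81.8 to 840.3 CPM in gland (3.55 ± 0.93, adjusted p = 0.0151). Its highest glandular value came from cyclic M, whose stroma was also the highest. Type XII and XIV collagens, which coat the surface of collagen fibrils, were both higher in stroma. COL14A1 was at 165 to 1552 CPM against 5.46 to 28.5 CPM (5.88 ± 1.32, adjusted p = 0.00434), and COL12A1 had a fold change of 4.89 ± 1.48 (adjusted p = 0.0449).

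Around the collagens, further matrix genes passed. DPT, dermatopontin, a small matrix protein that binds decorin and aids fibril assembly, stood at 1187, 7935, 1257 and 2136 CPM in stroma and 136, 43.7, 111 and 336 CPM in gland (3.93 ± 0.98, adjusted p = 0.00862). SPARCL1, a matricellular protein, was at 752 to 2985 CPM in stroma. Its gland of cyclic M reached 906 CPM, above the stroma of pregnant M, so its groups overlapped (3.59 ± 1.00, adjusted p = 0.0219). FBLN1, fibulin 1, had 5.35 ± 1.57, the collagen-modifying enzyme partner CRTAP 4.41 ± 1.33, the secreted proteins CCDC80 5.12 ± 1.36 and CRISPLD2 4.51 ± 1.23, and the membrane metalloproteinase ADAM33 6.24 ± 1.80 (adjusted p from 0.0158 to 0.0449). ADAM33 was uneven, with 1621 CPM in the stroma of cyclic M and 27.4 CPM in that of cyclic B, and it overlapped with the 56.5 CPM of the pregnant M gland.

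Of 15 genes tested on the list of fibrillar and interstitial matrix, 5 passed as higher, against 1.35% of all genes tested, and 0 as lower. All 15 had positive fold changes, against 36.6% of all genes, and the median was 4.17 against -0.66 over all genes. The groups did not overlap for 10 of them, against 3.86% of all genes upward. For the lists below the background is the same, with 0.75% of all genes called lower and 6.86% not overlapping downward. The filter on low counts keeps a gene that reaches its cutoff in either compartment alone. For list members kept through the compartment where they are high, sign and separation were largely set in advance. These list counts therefore describe the genes tested and are no separate support. By biopsy the median difference of the matrix list was 2.88 in cyclic B, 4.59 in cyclic M, 4.20 in pregnant M and 4.04 in pregnant U. The proteoglycan DCN, decorin, did not pass at 600 to 1319 CPM in stroma and 9.04 to 322 CPM in gland (3.25 ± 1.17, adjusted p = 0.133), nor did LUM, lumican (4.17 ± 1.95, adjusted p = 0.335). FBN1, fibrillin 1, and SPARC, chosen after their values were seen, stood just outside the threshold at 5.26 and 3.95 (adjusted p = 0.0542 and 0.057). Basement membrane genes behaved otherwise: 0 of 9 passed, the median was 1.19, and the members with the smallest p pointed in opposite directions. COL17A1, a transmembrane collagen of epithelial anchoring junctions, had -4.65 ± 1.53 (adjusted p = 0.0821), and LAMC1, the laminin gamma 1 chain, had 2.89 ± 1.21 (adjusted p = 0.245).

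**Figure D4:**
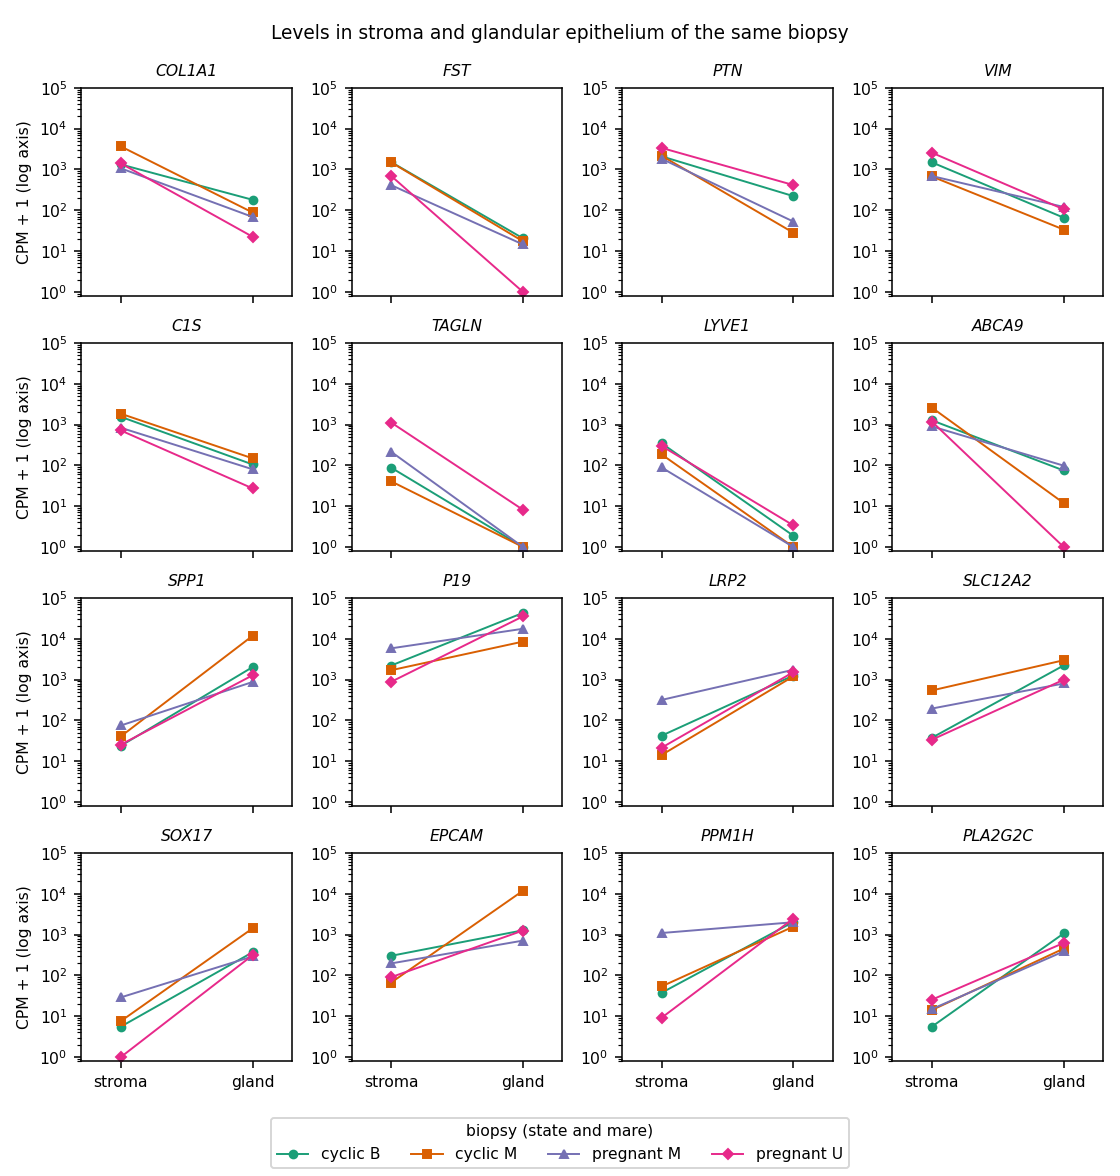
Level plus 1 (CPM, log axis) of 16 genes in stroma (left) and gland (right), with a line for each of the 4 biopsies. The upper 8 genes run down from stroma to gland and the lower 8 run up, and the pregnant M stroma sits above the other stromal libraries for SPP1, P19, LRP2, SOX17 and PPM1H.

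The second stromal group holds secreted regulators of growth factors. FST, follistatin, which binds activins and some bone morphogenetic proteins and keeps them from their receptors, stood at 1515, 1496, 412 and 693 CPM in the stroma of cyclic B, cyclic M, pregnant M and pregnant U. In the glands it stood at 19.6, 16.4, 13.6 and 0 CPM. The groups did not overlap, and both cyclic stromal values lay above both pregnant ones (6.53 ± 1.31, adjusted p = 0.000866). Whether the stromal level of FST differed between the states was not tested. The distance between stroma and gland was compared between the states, and no difference was shown for FST (difference of the fold changes, pregnant minus cyclic, 0.416 ± 1.995, adjusted p = 0.999). IGFBP7 and IGFBP5, secreted proteins that bind insulin-like growth factors or related ligands, had 5.96 ± 1.55 and 3.83 ± 1.05 (adjusted p = 0.0151 and 0.0194). IGFBP5 was even across the stroma at 1036 to 1657 CPM, whereas IGFBP7 reached 1737 CPM in pregnant U and 270 to 429 CPM in the other 3 stromal libraries.

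PTN, pleiotrophin, a heparin-binding growth factor, was at 2100, 2168, 1829 and 3376 CPM in stroma and 222, 27.3, 52.0 and 415 CPM in gland (4.35 ± 1.01, adjusted p = 0.00492). TNFSF10, the death receptor ligand TRAIL, was at 530 to 1193 CPM in stroma and 11.6 to 27.1 CPM in gland (5.71 ± 1.29, adjusted p = 0.00434). Both were high in all 4 stromal libraries. Of the IGF system 2 of 6 genes tested passed as higher and 0 as lower (median 1.3), and of the TGF-beta and BMP pathway 1 of 11 as higher (FST) and 0 as lower (median 2.99). TGFBR2, a TGF-beta receptor chosen after its value was seen, lay just outside at 5.18 (adjusted p = 0.057). IGF1R, the IGF1 receptor, was -2.06 (adjusted p = 0.351).

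Complement and clotting regulators formed another stromal group. C1S, the serine protease that starts the classical complement pathway, stood at 1543, 1839, 831 and 714 CPM in stroma and 104, 147, 79.1 and 26.2 CPM in gland (3.90 ± 1.07, adjusted p = 0.0194). CLU, clusterin, a secreted chaperone that restrains the terminal complement complex, was at 415 to 2135 CPM against 2.38 to 31.6 CPM (5.60 ± 1.31, adjusted p = 0.00492). TFPI2, an inhibitor of plasmin and other serine proteases of the matrix, was at 468 to 1586 CPM against 13.6 to 30.3 CPM (5.38 ± 1.26, adjusted p = 0.00492). None of the 3 overlapped between the compartments. Of 7 complement and coagulation genes tested, these 3 passed as higher and 0 as lower (median 4.25). C1R, the partner protease of C1S, was 4.25 (adjusted p = 0.0943), while the clotting factor F5 at -3.38 and the complement factor CFI at -3.72 pointed to the gland without passing (adjusted p = 0.0643 and 0.133). These 3 were chosen after their values were seen. CLU is also on the list of gland products, and here it was higher in stroma.

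Genes of contractile and vascular cells followed, several of them with almost no counts in gland. TAGLN, transgelin, an actin-binding protein of smooth muscle, stood at 86.7, 39.5, 214 and 1117 CPM in stroma and had 3 counts in all 4 glands, against 406 in stroma. The ratio of the pooled counts, each per pooled TMM-scaled library size, was 263 (exact Clopper-Pearson 95% counting interval 89.3 to 1280, adjusted p = 0.0158). MYH11, smooth muscle myosin heavy chain, had 1 count in gland and 314 in stroma (ratio 610, interval 109 to 24200, adjusted p = 0.0287). CALD1, caldesmon, was 5.34 ± 1.52 (adjusted p = 0.027). MYH11 and TAGLN were highest in pregnant U. Of 6 smooth muscle and pericyte markers tested, these 3 passed as higher, all 6 were positive and the median was 5.20. TAGLN and MYH11, with almost no counts in gland, entered the test through stroma, which sets their sign. Over all genes tested, 1.35% passed as higher and 36.6% were positive. ACTA2, smooth muscle actin, was too sparse to test, with 62 counts in stroma, 31 of them in cyclic B and 29 in pregnant U, and 0 in gland.

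LYVE1, a hyaluronan receptor of lymphatic endothelium and of some macrophages, stood at 347, 185, 87.9 and 298 CPM in stroma. It had 2 counts in gland against 221 in stroma (ratio 215, interval 58.7 to 1780, adjusted p = 0.0303). JAM2, a junctional adhesion molecule of endothelium, had 2 counts in gland against 378 (ratio 367, interval 101 to 3040, adjusted p = 0.0133), and TM4SF1, a tetraspanin-like protein of endothelial and other cells, 1 against 336 (ratio 653, interval 116 to 25900, adjusted p = 0.016). These intervals cover counting error only, since amplified reads are not independent molecules. Beside LYVE1, PECAM1 did not pass (6.49 ± 2.17, adjusted p = 0.0943), so 1 of 3 endothelial markers tested passed. The G protein subunit GNG11, abundant in endothelium, was 5.77 ± 1.47 (adjusted p = 0.0115). TCF4, a basic helix-loop-helix factor of mesenchymal cells, was 6.72 ± 1.90 (adjusted p = 0.0251), with 59.3 CPM in the stroma of cyclic B and 268 to 979 CPM in the others. It was the 1 gene past the threshold among 5 mesenchymal transcription factors tested. The WNT pathway list also holds the symbol TCF4, which is an older name of the WNT effector TCF7L2, a separate gene that was too sparse to test (52 counts in stroma and 2 in gland). The other 5 WNT genes tested were all negative and none passed (adjusted p from 0.43 to 0.983).

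VIM, vimentin, the intermediate filament of mesenchymal cells, was at 1493, 672, 690 and 2573 CPM in stroma and 64.9, 32.7, 120 and 105 CPM in gland (4.02 ± 1.08, adjusted p = 0.0167). It is 1 of 7 stromal fibroblast markers tested, of which 4 passed (COL1A1, COL1A2, DPT and VIM), all 7 were positive and none overlapped. PDGFRB and LUM, sparse in gland, passed the filter on low counts through stroma, which largely sets their sign and separation. Of the markers too sparse to test, MME (35 counts in stroma, 120 in gland) and HAND2 (2 and 3) ran the other way. The other untested markers of this list had more counts in stroma. Over all genes tested, 1.35% passed as higher, 36.6% were positive and 3.86% did not overlap upward. GSN, gelsolin, which severs actin filaments, was 4.004 ± 1.20 and the cytoskeletal linker DST 3.56 ± 1.09 (adjusted p = 0.0424 and 0.0486). PKM, the muscle-type pyruvate kinase of glycolysis, was at 300 to 995 CPM in stroma and 0.89 to 16.4 CPM in gland (6.16 ± 1.68, adjusted p = 0.0194).

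ABCA9, a transporter of the ABCA subfamily, stood at 1264, 2590, 899 and 1178 CPM in stroma and 73.8, 10.9, 97.2 and 0 CPM in gland (5.86 ± 1.25, adjusted p = 0.00241). Its relative ABCA8 was at 514 to 1415 CPM against 0 to 71.2 CPM (4.55 ± 1.25, adjusted p = 0.0194). Reads shared between such similar genes could move counts from one to the other. Of further members, chosen after their values were seen and too sparse to test, ABCA6 had 71 counts in stroma and 8 in gland and ABCA10 65 and 1, all 65 in cyclic B, whereas ABCA5 had 7 and 212. APOD, apolipoprotein D, a lipocalin that carries small lipids, was at 1741 to 6690 CPM in stroma and 79.1 to 482 CPM in gland (3.55 ± 0.93, adjusted p = 0.0151). It was the 1 gene past the threshold among 9 of lipid and cholesterol metabolism, whose median was -1.42. The remaining called genes, LOC100054688 (6.52 ± 1.47, adjusted p = 0.00434) and LOC100058767 (4.70 ± 1.26, adjusted p = 0.0167), carry placeholder symbols.

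On the glandular side, secreted products are described first. SPP1, osteopontin, an adhesive phosphoprotein that bridges cells through integrins, stood at 2022, 11810, 872 and 1271 CPM in the glands of cyclic B, cyclic M, pregnant M and pregnant U. In the stroma it was at 22.8, 39.5, 74.0 and 24.5 CPM. It had the smallest p of all genes tested (-5.96 ± 1.07, adjusted p = 6.61e-05) and kept its call under all 19 other settings. P19, uterocalin, a lipocalin that the equine gland secretes in quantity under progesterone, was at 42950, 8507, 17540 and 35320 CPM in gland. Its stromal levels of 2209, 1694, 5818 and 881 CPM were high in themselves and still below every gland (-3.37 ± 0.93, adjusted p = 0.0194). PLA2G2C, a secretory phospholipase A2, was at 387 to 1067 CPM in gland and 4.57 to 24.5 CPM in stroma (-5.42 ± 1.45, adjusted p = 0.0169). SCGB1A1, uteroglobin, a small carrier of hydrophobic ligands, did not pass at 522 to 2990 CPM in gland and 20.4 to 329 CPM in stroma (-3.41 ± 1.13, adjusted p = 0.0871), although the ranges were apart.

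Of 9 gland markers and products tested, 4 passed as lower in stroma (SPP1, LRP2, SOX17 and P19) and 1 as higher (CLU), and the median was -3.41. LIFR, the leukemia inhibitory factor receptor, also ran against the list's name at 85.7 to 529.5 CPM in stroma and 0 to 65.6 CPM in gland, without passing (4.11 ± 1.78, adjusted p = 0.266). Of the members too sparse to test, PRLR (235 counts in stroma, 1 in gland), PRSS23 (180 and 13) and EMX2 (101 and 50) ran the same way. The PRLR counts came from the stroma of cyclic B and pregnant M alone. The other untested members with any count had more in gland.

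Uptake and transport proteins of the gland membrane followed. LRP2, megalin, a large endocytic receptor that takes up carrier proteins with their ligands, was even across the glands at 1253, 1195, 1736 and 1514 CPM. In stroma it stood at 41.1, 13.2, 316 and 20.4 CPM (-5.00 ± 1.16, adjusted p = 0.00492). SLC12A2, the sodium, potassium and chloride cotransporter NKCC1 that loads secretory cells with chloride, was at 2212, 2974, 800 and 987 CPM in gland and 36.5, 540, 194 and 32.6 CPM in stroma (-3.76 ± 1.05, adjusted p = 0.0227). SLC38A1, a glutamine transporter, had no count in 3 stromal libraries and 32.6 CPM in pregnant U, against 142 to 1140 CPM in gland (-7.48 ± 1.86, adjusted p = 0.00862). CLIC6, a chloride intracellular channel family member, was at 307 to 1801 CPM in gland and 0 to 36.0 CPM in stroma (-6.21 ± 1.55, adjusted p = 0.00862). The peptidases DPP4, a membrane dipeptidyl peptidase, and CPD, a carboxypeptidase of the secretory route, had -4.17 ± 1.25 and -4.33 ± 1.22 (adjusted p = 0.0431 and 0.0245). CPD was even in both compartments, at 33.0 to 44.9 CPM in stroma and 633 to 1222 CPM in gland. EMB, embigin, a partner of lactate transporters, was -4.52 ± 1.07 (adjusted p = 0.00525), with 457 CPM in the stroma of cyclic B and 32.6 to 36.0 CPM in the others.

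Regulators of epithelial identity were fewer. SOX17, a transcription factor needed for uterine gland formation in mice, stood at 368, 1424, 292 and 312 CPM in gland and 4.57, 6.59, 27.98 and 0 CPM in stroma (-6.23 ± 1.63, adjusted p = 0.0151). It was the 1 gene past the threshold among 3 epithelial transcription factors tested, all of which were negative. RBM47, an RNA-binding protein of epithelia, had 3 counts in stroma and 597 in gland (ratio of gland to stroma 102, interval 34.9 to 498, adjusted p = 0.0224). EPCAM, the epithelial adhesion molecule, was at 1274, 11880, 712 and 1257 CPM in gland and 301, 65.9, 196 and 89.7 CPM in stroma (-3.51 ± 0.98, adjusted p = 0.0237). The gland of cyclic M was far above the others for EPCAM and SPP1, and it was the highest gland for 13 of the 20 genes lower in stroma. Without the cyclic M biopsy 12 of these 20 kept their call.

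The other called gland genes are less tied to secretion. PPM1H, a protein phosphatase, was at 2042, 1566, 2009 and 2465 CPM in gland and 36.5, 52.7, 1093 and 8.15 CPM in stroma (-5.04 ± 1.19, adjusted p = 0.00525). PAPSS2, which makes the sulfate donor for sulfated glycans and steroids, was at 971 to 1915 CPM in gland and 9.13, 52.7, 1015 and 12.2 CPM in stroma, so that pregnant M overlapped with the glands (-4.87 ± 1.33, adjusted p = 0.0194). CTTNBP2, a cortactin-binding protein, was at 2794 to 6341 CPM in gland and 89.7 to 1057 CPM in stroma (-3.86 ± 0.96, adjusted p = 0.00862). PRXL2A, a peroxiredoxin-like protein, was -4.12 ± 1.01 (adjusted p = 0.00862) and the mitochondrial ribosomal protein gene MRPS6 -6.14 ± 1.83 (adjusted p = 0.0416). LMTK2, a membrane-anchored kinase, had no count in stroma and 475 in gland (adjusted p = 0.00862). Its pooled glandular level was 81.5 times 2.69 CPM, the level that 3 counts would give in the stroma as a whole. This bound covers counting error only. The cyclic M gland stood at 797 CPM and the others at 132.5 to 260 CPM. On a scaling over 16 libraries the mean was 357 CPM in these glands and 84.5 CPM in those of other biopsies. No fit without 1 biopsy kept the call.

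Levels of the gland genes in stroma differed by biopsy. The pregnant M stroma was the highest stromal library for 8 of the 20 genes, cyclic B for 7, pregnant U for 3 and cyclic M for 2. As a share of the glandular level in the same biopsy, the stromal level of the 20 genes had a median of 2.54% in cyclic B, 0.923% in cyclic M, 9.35% in pregnant M and 2.19% in pregnant U, which also depends on the level of each gland. In pregnant M the share was not the same for all genes. It was 93.4% for PAPSS2, 54.4% for PPM1H, 33.2% for P19, 32.8% for CTTNBP2 and 18.2% for LRP2, but 3.62% for PLA2G2C, 1.5% for RBM47, 0.68% for DNAJB9 and 0% for LMTK2 and SLC38A1. Luminal epithelium markers (11 genes) summed to 745 CPM in this library and 31.2 to 49.8 CPM in the other stromal ones. Of its counts there, 208 were MSX1 and 75 LGR4, with 5 for the other 9 markers. Means for luminal epithelium and gland were taken on a separate TMM scaling over 16 libraries, so they differ from the other levels here. On that scaling MSX1 averaged 524 CPM in gland and 75.2 CPM in luminal epithelium. LGR4 ran the other way, with a mean of 235 CPM in gland and 347 CPM in luminal epithelium. The 24 epithelial markers summed to 574 CPM in this library, within the stromal range. Whether gland or luminal tissue entered this capture was not tested. In the other direction, the glandular level of the 36 stromal genes was a median of 4.69%, 1.06%, 5.85% and 0.992% of the stromal level in cyclic B, cyclic M, pregnant M and pregnant U.

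Lists of epithelial and secretory functions had few calls. Over all genes tested, 63.4% had negative fold changes. DNAJB9, an endoplasmic reticulum chaperone cofactor of the unfolded protein response, was at 154, 933, 294 and 293 CPM in gland and 0 to 9.13 CPM in stroma (-6.43 ± 1.85, adjusted p = 0.0287). It was the 1 gene past the threshold among 27 of the secretory pathway and unfolded protein response (0.75% of all genes passed as lower). Of the 27, 25 had negative fold changes (92.6%, median -2.21) and 6 did not overlap, against 6.86% of all genes downward. The chaperones CALR at -3.26 and HSPA5 at -3.34, chosen after their values were seen, did not pass (adjusted p = 0.0871 and 0.266). Of 10 tight junction and polarity genes 0 passed, 9 were negative (90%) and the median was -2.76. The desmosomal genes DSP, desmoplakin, and DSC2, desmocollin 2, came closest (-4.20 ± 1.304 and -6.24 ± 2.13, adjusted p = 0.057 and 0.104), with DSP at 660 to 1011 CPM in gland and 20.4 to 408 CPM in stroma. Of 11 glycosylation genes 0 passed and 9 were negative (81.8%, median -3.11), and B4GALT1, a galactosyltransferase, and RPN2, an oligosaccharyltransferase subunit, had the smallest p (-5.51 ± 2.34 and -5.55 ± 2.41, adjusted p = 0.258 and 0.266). Of 6 ion and solute transport genes 2 passed as lower in stroma, SLC12A2 and SLC38A1 (median -2.34).

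**Figure D5:**
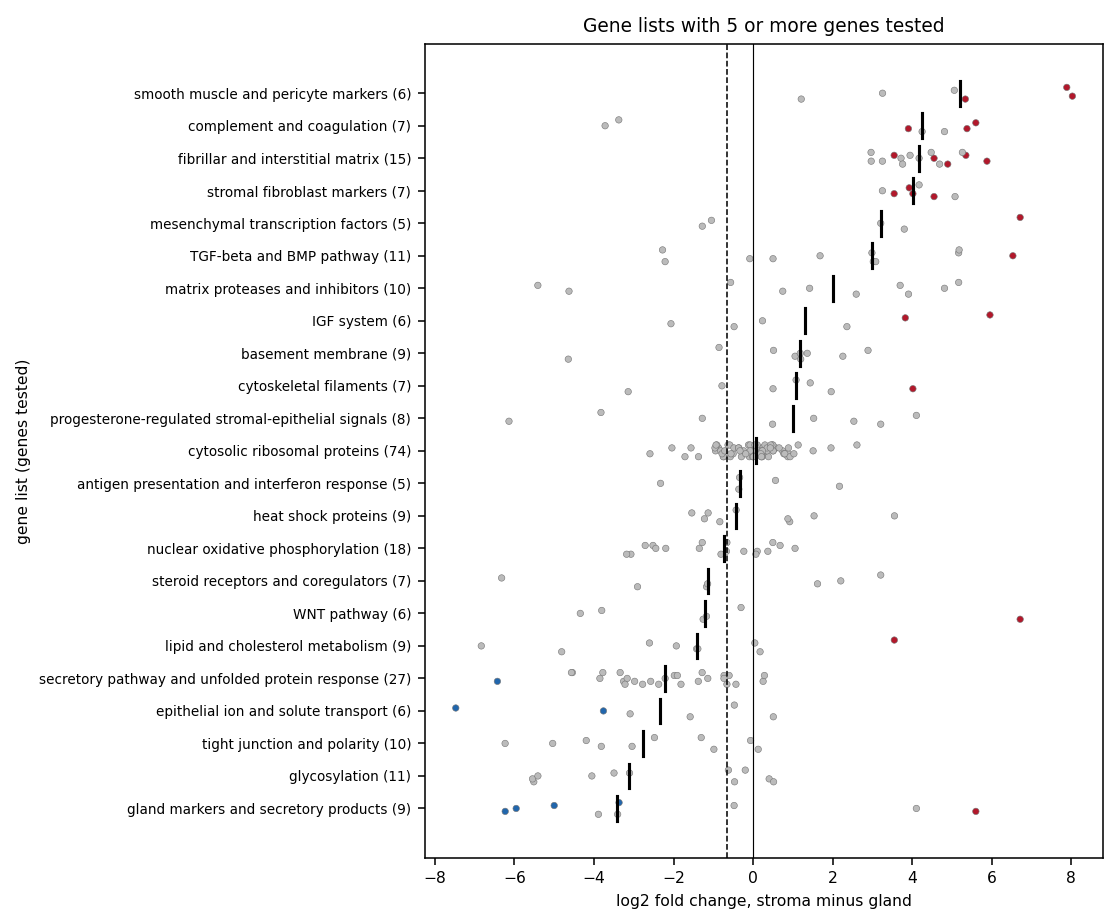
Fitted log2 fold change, stroma minus gland, of each tested gene in the 23 lists with 5 or more genes tested. Red and blue points passed as higher and lower in stroma, grey points did not pass, black bars are list medians, the solid line is 0 and the dashed line the median of all genes (-0.66). Matrix and contractile lists lie to the right with medians of 4.17 and 5.20, and gland products, glycosylation and junction lists to the left with medians of -3.41, -3.11 and -2.76.

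Signals between the compartments were mostly below what these libraries could test. Of 29 genes listed for progesterone-regulated exchange between stroma and epithelium, 8 were tested and 0 passed. IHH, Indian hedgehog, the epithelial ligand, was at 178, 10.9, 260 and 794 CPM in gland and had counts in 1 stromal library alone, pregnant M (124 CPM; -6.14 ± 2.54, adjusted p = 0.237). Its receptor PTCH1, chosen after its values were seen, was at 534, 59.3, 635.5 and 322 CPM in stroma and 63.2, 5.46, 81.4 and 184 CPM in gland (2.53 ± 1.47, adjusted p = 0.532). PTCH1 was higher in the stroma of all 4 biopsies, without passing. Of 7 steroid receptors and coregulators 0 passed. NCOA2, a receptor coactivator, was at 233 to 611 CPM in gland and 0 to 29.98 CPM in stroma (-6.32 ± 1.98, adjusted p = 0.0607), PGRMC1 was -2.91 ± 1.38 (adjusted p = 0.349), and ESR1, the estrogen receptor, was at 9.13, 13.2, 813 and 122 CPM in stroma and 174, 16.4, 479 and 322 CPM in gland (-1.17 ± 1.52, adjusted p = 0.862). ESR1 was thus uneven within both compartments, with its highest value in the pregnant M stroma.

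Among further lists, matrix proteases and inhibitors had 0 of 10 genes past the threshold, with MMP2, a gelatinase, at 3.91 ± 1.25 and its inhibitor TIMP2 at 3.70 ± 1.26 (adjusted p = 0.0702 and 0.103). ALDH1A1, which makes retinoic acid, was at -0.15 ± 1.07 (adjusted p = 0.985). The receptors PDGFRB of stromal cells and ERBB3 of epithelia were 5.08 ± 2.24 and -4.75 ± 2.43 (adjusted p = 0.277 and 0.425). The luminal markers MSX1 and LGR4 were -4.60 ± 1.70 and -3.81 ± 2.28 (adjusted p = 0.149 and 0.556), with 416 and 150 CPM in the stroma of pregnant M. PTPRC, the pan-leukocyte protein CD45, was at 1045, 283, 83.9 and 97.9 CPM in stroma and 0 to 35.8 CPM in gland (4.15 ± 1.79, adjusted p = 0.266). CD74, the chaperone of class II antigen presentation, was at 885 to 1447 CPM against 235 to 281 CPM (2.17 ± 0.97, adjusted p = 0.292). Neither immune gene overlapped, and neither passed. On a scaling over 16 libraries, CD74 averaged 4940 CPM in the luminal epithelium of the same biopsies and 1335 CPM in stroma. MCM6, a replication helicase subunit and the 1 cell cycle gene tested, was 5.66 ± 1.98 (adjusted p = 0.116).

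Lists of genes that most cells use lay nearer to the centre. Of 74 cytosolic ribosomal protein genes 0 passed, 39 were positive and 35 negative, and the median was 0.071, with RPLP1 at 1.96 ± 0.99 (adjusted p = 0.412). Its median by biopsy ran from -0.715 in cyclic M to 1.42 in pregnant U. Of 18 nuclear oxidative phosphorylation genes 0 passed and 12 were negative (66.7%, near the 63.4% of all genes; median -0.739), with COX7C at -3.18 ± 1.62 and ATP5F1E at -2.52 ± 1.79 (adjusted p = 0.42 and 0.676). Of 9 heat shock genes 0 passed (median -0.426), with HSPB6 at 3.56 ± 1.56 and HSP90AB1 at 1.53 ± 0.97 (adjusted p = 0.277 and 0.607). Of 3 immediate early genes 0 passed, with CCN2 at 0.97 ± 2.23 and KLF6 at -0.57 ± 2.17 (adjusted p = 0.949 and 0.979). EPSTI1, an interferon-induced gene, was -2.33 ± 1.55, HOXB6 -2.90 ± 1.88 and GATA2 -1.54 ± 2.17 (adjusted p = 0.63, 0.616 and 0.884). No gene of the lists for ciliated cells, macrophages, B cells, red blood cells, nerve or prostaglandins passed the filter on low counts.

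The called genes were also read in glandular libraries that did not enter the test. In the 4 glandular libraries of biopsies without stroma, all values lay below all 4 stromal values for 33 of the 36 stromal genes (91.7%, against 3.86% of all genes tested), the exceptions being TM4SF1, TCF4 and COL12A1. For 19 of the 20 gland genes all 4 lay above all stromal values (95%, against 7.46%), the exception being PAPSS2. The stromal libraries are the same ones in both comparisons, so only the glandular side is new, and 2 of these 4 glands came from mares B and U in their other state. On this scaling over 16 libraries, SPP1 averaged 1537 CPM in the other glands and 45.2 CPM in stroma, and COL1A1 134 and 2122 CPM.

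The luminal epithelium of the same biopsies was set beside these values. For CPD, RBM47, SOX17, EMB and PRXL2A all 4 luminal values lay above all 4 stromal values (25% of the gland genes, against 3.6% of all genes). PRXL2A averaged 4816 CPM in luminal epithelium and 2106 CPM in gland. For LRP2, PAPSS2, PLA2G2C, SLC38A1, CTTNBP2 and SPP1 the luminal mean lay below the stromal mean (30%, against 51.1% of all genes). Without the highest stromal library of each gene this order held for CTTNBP2 (130.2 against 251 CPM), PLA2G2C (4.62 against 11.8 CPM) and PAPSS2 (21.1 against 27.9 CPM). It turned for LRP2 (30.8 against 28.6 CPM), SPP1 (35.2 against 33.2 CPM) and SLC38A1, which had counts in 1 stromal library alone. Among the 36 stromal genes, 25 had all luminal values below all stromal ones (69.4%, against 2.85% of all genes tested). Those that did not included TNFSF10, at a mean of 929 CPM in luminal epithelium and 997 CPM in stroma, and VIM, at 652 and 1565 CPM. COL1A1 (1312 and 2122 CPM), COL1A2 (936 and 3268 CPM) and C1S (603 and 1399 CPM) were also among them. The highest luminal value of COL1A1, 4241 CPM, lay above its highest stromal value of 4130 CPM. The rest were COL12A1, GNG11, IGFBP7, TAGLN, CALD1 and ADAM33. The genes were called on these same stromal values, so shares that differ from those of all genes are partly built in, and only the luminal side is new. These luminal levels were set beside the others as a description and were not tested.

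Whether the distance between stroma and gland differed between pregnancy and cycle was tested as the difference of the fold changes, with 2 biopsies per state and mare M in both. By edgeR 0 of 2667 genes passed, with 60 at an unadjusted p under 0.05 and a smallest adjusted p of 0.999, while DESeq2 called 17 genes and had 318 at an unadjusted p under 0.05. The genes with the smallest p toward stroma in pregnancy were DLG1, a polarity scaffold (8.29 ± 2.70), RNF141 (12.7 ± 4.21) and NENF, a secreted neurotrophic factor (13.3 ± 4.44). Those toward gland in pregnancy were AP4E1, an adaptor subunit (-11.2 ± 4.15), CGNL1, a junction protein (-6.88 ± 2.98), and DDHD1, a phospholipase (-10.6 ± 4.86). Each had at least 1 library at 0 except CGNL1, whose lowest value was 16.3 CPM. An example was DLG1, with 0 and 6.59 CPM in the cyclic stroma against 174 and 465 CPM in the pregnant stroma. By edgeR, a different response to pregnancy in stroma and gland was not detectable for any gene at this depth.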

How the data were processed

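The authors deposited raw read counts for 24942 gene IDs, 1 column per library, and the submitters' processing notes list Trimmomatic 0.32.2 (read trimming) and HISAT2 2.0.3 (alignment). The counter, genome build, annotation and handling of duplicates were not given in the sources used here. Scaled copies of the table were not used. Symbols were matched by gene ID to a RefSeq gene table (TB-T2T assembly) for 85.9% of the IDs and for 93.2% of those with a count in the 8 libraries.

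Counts were tested in R 4.3.3 with edgeR 4.0.16: TMM scaling, filterByExpr (minimum count 10, minimum total count 15), quasi-likelihood F-tests (two-sided) with the biopsy as a block, and Benjamini-Hochberg adjustment across the tested genes. Genes under 0.05 were called, and adjusted p-values with no tool named beside them are edgeR's. The SE was derived as the absolute log2 fold change divided by the square root of F. The prior degrees of freedom were infinite, so F and SE rest on a spread shared by all genes. Pairs were set by the state and mare letter in the labels, since both compartments came from 1 biopsy. Deviations of the paired libraries from their compartment means correlated across genes at r = 0.0704, 0.0743, 0.192 and -0.0323, against -0.147 to 0.122 for the other pairings. The block therefore rests on the design alone. Alternatives used limma 3.58.1, DESeq2 1.42.0, other scalings, filters and blocks. Marker sums without their most counted gene were added after seeing the data. The script was tested on simulated data.

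Members and gene lists were chosen with earlier results of these data known. By the naming rule, the text gives the 12 called genes of smallest p in each direction that moved alike in all biopsies and either passed over sums per mare or kept their sign without each biopsy (no placeholder symbols), the called members of each list (at most 8 per direction) or otherwise its 2 of smallest p, a fixed set of 16 genes where measured, and the 3 of smallest p in each direction for the difference between states. The other 16 called genes, both placeholders among them, fall outside the rule and are named so that every call is given. COL3A1, of the fixed set, was not analysed here, and 2 genes that the rule names are not reported here. Reads of near-identical copies and antisense transcripts could not be separated.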

Additional observations from a re-analysis of the deposited data

Results flagged for a closer look

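With 133 sets of 4 values examined, chance alone flags about 1 in 20. Each result here has 1 value whose gap to the nearest other, divided by the whole range, exceeded Dixon's 95% critical value. The total count of the pregnant M stroma was far above the other stromal libraries (1175127, ratio 0.901), as was its sum of luminal markers (745 CPM, ratio 0.974). The pregnant M gland had the largest share of counts on IDs without a symbol (7.70%, ratio 0.854) and was the 1 gland with counts for nerve and Schwann cell markers (7.72 CPM, ratio 1). The cyclic M gland had the highest sum of epithelial markers (10310 CPM, ratio 0.89), of which EPCAM alone gave 9818 CPM, and the pregnant U gland for ciliated cell markers (1076 CPM, ratio 0.876). That ciliated sum held 203 counts of TEKT1 and 116 of DRC3, against 2 of FOXJ1, and was 452 CPM without TEKT1. Outside the comparison, the cyclic C gland reached 1928 CPM for this list. The cyclic B stroma was highest for macrophage and dendritic markers (1878 CPM, ratio 0.882) and for T and NK cell markers (1746 CPM, ratio 0.875; 372 CPM without PTPRC). Among differences of log2 CPM by biopsy, cyclic M lay apart for DPT (7.35, ratio 0.83), PRXL2A (-6.34, ratio 0.853) and IGFBP5 (5.52, ratio 0.944), cyclic B for PLA2G2C (-6.83, ratio 0.882) and pregnant M for PKM (3.88, ratio 0.842). Each of these 5 kept its direction in the other 3 biopsies.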

How the results depend on the processing

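None of the 56 called genes changed direction under any of the 19 other settings that gave it a value, but the number of calls moved with the setting. Against 36 higher and 20 lower genes, no filter on low counts left 0 and 2, a count in at least 6 libraries left 30 and 10, limma-voom gave 58 and 50, the likelihood ratio test 65 and 105, and DESeq2 141 and 240, the latter including all 56. All 8 glandular libraries with the mare as block gave 66 and 106. Without a replicate block there were 43 and 31, of which 35 and 15 were among the calls with the block. Leaving out 1 biopsy gave 2 to 38 higher and 1 to 25 lower genes, the fits without cyclic B, pregnant M or pregnant U keeping 3, 9 and 4 of the 56 calls and that without cyclic M 37. Counts with other scalings, robust dispersions, a minimum count of 5, sums per mare and the mare as block stayed within 1.5 times. Thinning all libraries to 128256 counts, chosen after seeing the data, gave 35 higher and 15 lower genes. For the difference between states, no filter, limma-voom and the fit without a replicate block gave 1 gene each and DESeq2 17, against 0. The median over all genes was -0.468 with RLE factors, -0.709 with upper quartile factors and -1.47 without a filter. None of the 35 list medians changed sign with another scaling or without ribosomal RNA genes, and 3 did without a filter (HOX, cell cycle and immediate early genes). PPM1H and PAPSS2 were -2.75 and -2.24 at their smallest. Depth limits the low genes: 3 counts equal 5.996 to 19.8 CPM in a stromal and 2.67 to 16.4 CPM in a glandular library.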
